A study of Mus musculus with 6 samples.

Results

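The mRNA level of the cytosolic ribosomal protein genes was followed across 6 RNA-seq libraries of C2C12. This mouse myoblast line divides in rich serum, and it leaves the cell cycle and fuses into myotubes when serum is lowered. The genes were taken by a symbol pattern, Rpl or Rps with a number and at most a suffix of a, x, l or l1, together with Rplp0, Rplp1, Rplp2 and Rpsa. This gave 82 of the 20950 entries, 51 of the large subunit and 31 of the small subunit, of which 76 encode standard ribosomal proteins and 6 are paralogs (Rpl3l, Rpl7l1, Rpl10l, Rpl22l1, Rpl39l and Rps27l). One library came from growing cells in 10% FBS (fetal bovine serum). The others came from cells moved to a differentiation medium, which was 2% HS (horse serum, 1 library), 2% HS + exosome (1 library), 0.2% FBS (1 library) or 0.2% FBS + exosome (2 libraries). The exosomes, small vesicles that cells release, had been isolated from FBS. All libraries share the cell line, the basal medium and the first days of culture in 10% FBS. The labels do not say whether the 2 libraries of 0.2% FBS + exosome came from separate cultures or vesicle preparations, so their spread may be technical. The harvest time is not in the labels.

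Each cytosolic ribosome carries one copy of most ribosomal proteins, built with ribosomal RNA into a large and a small subunit. The genes lie apart in the genome and are transcribed at high and similar rates, so that the proteins are made in matched amounts. Their mRNAs begin with a run of pyrimidines, the 5′ terminal oligopyrimidine (TOP) tract, through which growth and nutrient signals to the mTOR kinase set how well they are translated. Myoblasts that leave the cell cycle lower ribosome production. A few ribosomal proteins have paralogs, such as Rpl3l, which is known from adult skeletal muscle and heart.

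The values were FPKM, fragments per kilobase of transcript scaled to library depth, which allow levels to be compared between genes per length. Differences are given as log2(FPKM + 1), where 1 means a doubling. Of the 82 genes, 79 had a mean of at least 1 FPKM and entered the comparisons, beside 10731 features in all that passed this minimum. Rpl3l, Rpl10l and Rpl39l were below it. Rps27 passed only through the 10% FBS library. It is counted among the 79 unless its removal is stated, and it is described apart, with its copy. The estimated depth was 33700000 to 39100000 reads per library, taken from the steps between low FPKM values since the table holds no counts. The 11 markers of skeletal myoblasts and myotubes together summed to 9999 FPKM in 10% FBS, 20881 in 2% HS, 20123 in 2% HS + exosome, 23674 in 0.2% FBS, and 9625 and 7046 in 0.2% FBS + exosome. Among markers of other cells, 6 of 6 of blood and 3 of 3 of endothelium stayed below 1 FPKM in every library, as did 4 of 5 of adipocytes, with Lep at 1.01 to 1.62 FPKM. The 6 fibroblast markers summed to between 1257 and 2096 FPKM, most of it Col3a1, and Thy1 was listed at 0. From 10% FBS to 2% HS, Dcn went from 41.1 to 165 FPKM and Lum from 0.650 to 4.34. Col3a1 went from 1168 to 1036 FPKM, and Col1a1 and Pdgfra were also lower. The part of these shifts in the results was not tested.

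The ribosomal protein genes were among the most abundant transcripts. They made up 54 of the 100 entries with the highest mean, 40 of them had a mean of at least 1000 FPKM, and 74 had at least 100 FPKM in every library. Rpl41, which encodes the shortest ribosomal protein, was the highest with 3551 FPKM in 10% FBS, 2914 in 2% HS, 3109 in 2% HS + exosome, 3801 in 0.2% FBS, and 3242 and 4499 in 0.2% FBS + exosome. It was followed by Rplp1 (mean 3098 FPKM), a protein of the acidic stalk that recruits translation factors, and by Rps18 (2819), Rps12 (2296) and Rpl23a (2119). The order of the genes was nearly the same in all libraries. Over the 78 genes without Rps27, Spearman's rho between the levels of 2 libraries lay between 0.970 and 0.996, a description across genes, which are not independent.

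The share of all FPKM held by the 82 genes differed between the libraries. It was 21.1% in 10% FBS, 14.9% in 2% HS, 16.8% in 2% HS + exosome, 17.7% in 0.2% FBS, and 18.3% and 22.2% in 0.2% FBS + exosome. Growing cells and the second exosome library had the highest shares, and 2% HS the lowest. The 2 exosome libraries of the same medium were 3.94 percentage points apart, beside 6.19 points between 10% FBS and 2% HS. The ratio of large to small subunit genes in summed FPKM was lowest in 10% FBS (1.37) and highest in 2% HS (1.47). FPKM is relative to the library total, so a lower level of these mRNAs and a higher level of other transcripts cannot be told apart. When the 100 highest other entries were left out of the total, the share was 27.2% in 10% FBS, 20.4% in 2% HS, 22.7% in 2% HS + exosome, 24.3% in 0.2% FBS, and 23.6% and 28.3% in 0.2% FBS + exosome. Without these entries 0.2% FBS was above the first exosome library, while 2% HS was still the lowest.

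**Figure D1:**
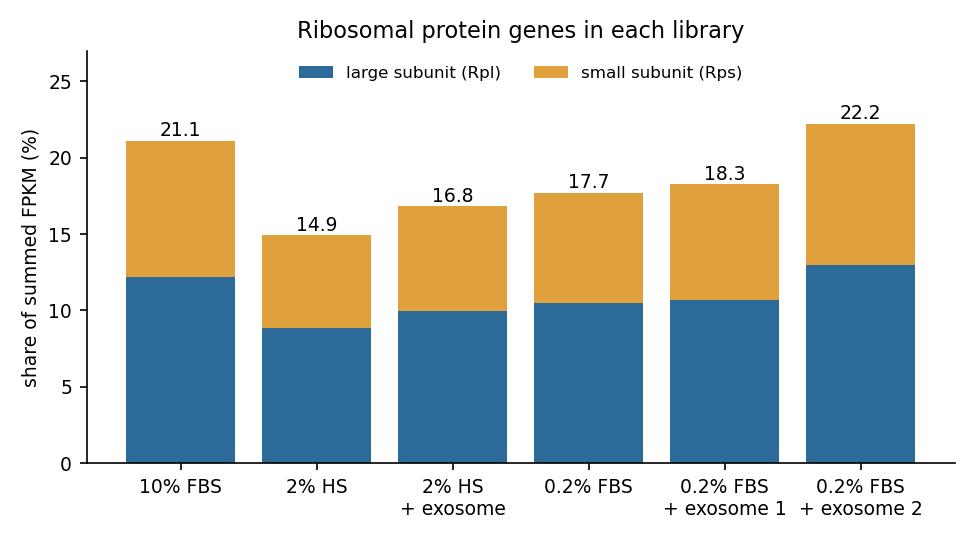
Share of the summed FPKM held by the 82 ribosomal protein genes in each of the 6 libraries, in percent, with large subunit genes below and small subunit genes above. Bars are single libraries with no error, and they run from 14.9% in 2% HS to 22.2% in the second library of 0.2% FBS + exosome.

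Against growing cells, almost every ribosomal protein gene was lower in 2% HS. It is a comparison of 2 single libraries, without a replicate of either, and was not tested. The median difference of the 79 genes was −0.46 on the log2 scale, against −0.08 over all 10731 features. The level in 2% HS was below that in 10% FBS for 76 of the 79 genes (96.2%), where 59.9% of all features were lower. The exceptions were Rpl34, Rpl7l1 and Rps27l. Only Rps12 and Rps27 were below −1 (2 of 79, 2.53%), against 0.522% of all features. Rps27 entered through its high value in 10% FBS, so that its difference followed from the filter. Without it the count below −1 was 1 of 78. The level was then lower in 75 of 78 genes (96.2%), with a median of −0.455. In 71 of the 79 genes 2% HS was the lowest of the 6 libraries, which held for 15.4% of all features.

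Other abundant transcripts differed in the opposite direction at the median. The 262 other features with a mean of at least 200 FPKM had a median difference of 0.18 in 2% HS. The median was −0.42 for the 46 standard large subunit genes, of which 45 were lower, and −0.55 for the 29 standard small subunit genes without Rps27, of which 29 were lower. The difference between subunits was not tested.

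Rps12, a protein of the small subunit head, had the lowest difference apart from Rps27, and 82.5% of its sequence in stretches of read length also occurs in other annotated transcripts. It had 3287 FPKM in 10% FBS, 1574 in 2% HS, 1795 in 2% HS + exosome, 1952 in 0.2% FBS, and 2118 and 3047 in 0.2% FBS + exosome. Every library other than the second with 0.2% FBS + exosome was well below growing cells. Rpl39, a small protein that lines the exit tunnel for new chains, had 1858 FPKM in 10% FBS and 945 in 2% HS. Its values were 1090 in 2% HS + exosome, 1206 in 0.2% FBS, and 1137 and 1601 in 0.2% FBS + exosome. Rpl12, part of the stalk base, was next in 2% HS with a difference of −0.82, from 1778 to 1006 FPKM. The stalk proteins Rplp0, Rplp1 and Rplp2 differed by −0.70, −0.59 and −0.74, and Rpsa, the laminin receptor protein of the small subunit, by −0.59.

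In 0.2% FBS the difference from growing cells was smaller. The median of the 79 genes was −0.16, against −0.09 over all features. The level was lower in 64 of 79 genes (81.0%), beside 61.4% of all features, and 1 gene, Rps27, was past the threshold of 1 in either direction (1.27%), beside 2.48% of all features. Without Rps27, whose difference followed from the filter, the count past 1 was 0 of 78. The level was then lower in 63 of 78 genes (80.8%), with a median of −0.16. Rps12 (−0.75), Rpl39 (−0.62) and Rplp2 (−0.52) were the lowest apart from Rps27. Among the genes that were higher were Rpl34 (0.40), Rpl7l1 (0.16) and Rpl29 (0.15). The 2 control media could be set side by side directly. The level was higher in 0.2% FBS than in 2% HS in 77 of the 79 genes (97.5%), beside 46.3% of all features, with a median difference of 0.28 against −0.01. The exceptions were Rps27 and Rps27l. Muscle marker transcripts summed to 23674 FPKM in 0.2% FBS and 20881 in 2% HS.

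**Figure D2:**
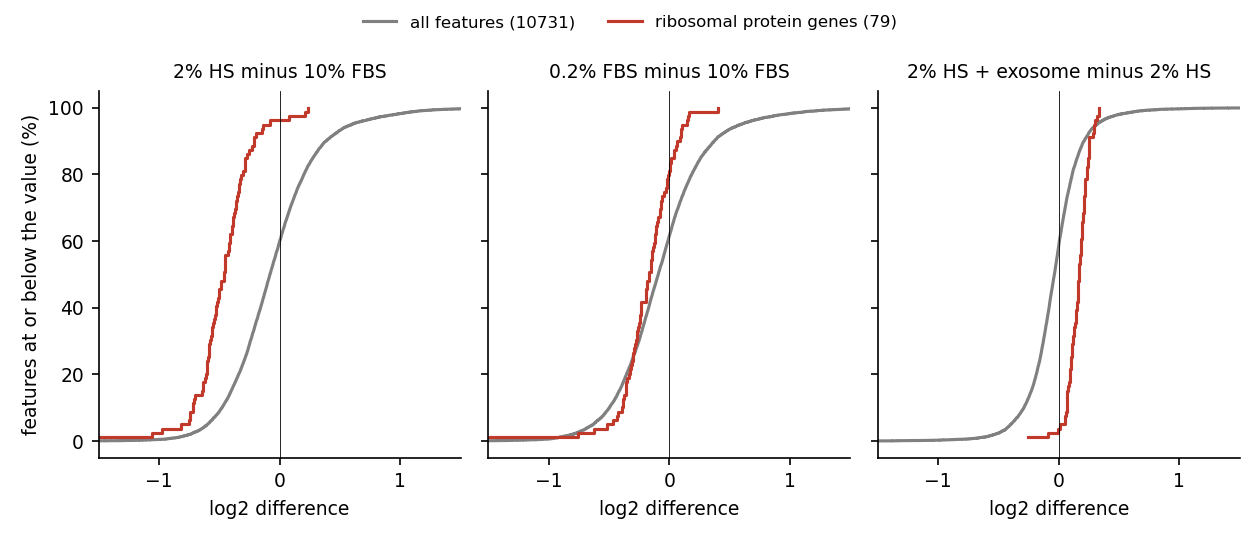
Cumulative share of features, in percent, at or below each log2(FPKM + 1) difference, for 79 ribosomal protein genes and all 10731 features. The ribosomal protein genes are displaced to lower values in 2% HS (median −0.46), less so in 0.2% FBS (median −0.16), and to higher values when exosomes were added to 2% HS (median 0.17).

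With exosomes added to 2% HS, most ribosomal protein genes were slightly higher. The median change was 0.17, against −0.04 over all features and −0.08 over the 262 other features of at least 200 FPKM. The level was above the control in 76 of 79 genes (96.2%), beside 41.3% of all features, and the exceptions were Rpl7l1, Rps27l and Rps2. None was past 1 in either direction (0 of 79), as for all but 0.652% of all features. The highest changes were 0.33 for Rpl22l1, 0.33 for Rpl38 and 0.31 for Rpl12, leaving Rps27 apart. Rpl38, a large subunit protein, had 1553 FPKM in 2% HS and 1956 in 2% HS + exosome. The lowest changes were −0.26 for Rps27l, −0.09 for Rpl7l1, −0.01 for Rps2 and 0.01 for Rpl10. These are differences between 2 single libraries.

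In 0.2% FBS the 2 exosome libraries gave different answers. The median change of the 79 genes was −0.05 in the first and 0.39 in the second, and the SD of these 2 medians was 0.31. The median of the per-gene means was 0.16. Over all features the medians were 0.09 and 0.18, and that of the means 0.14. With 75th percentile scaling the medians of the means were 0.05 for the 79 genes and 0.04 for all features. The second library was above the first for all 79 genes, with a median gap of 0.43, while 63.6% of all features were higher in the second, with a median gap of 0.07. With an equal FPKM sum the second was above the first for 78 of the 79, all but Rpl7l1, with a median gap of 0.27 against −0.08 over all features. The sign of the first median rested on the scaling: it was 0.05 when each library was scaled to the same FPKM sum and −0.12 when scaled to the 75th percentile.

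Counted by direction, 26 of the 79 genes (32.9%) were above the control in both exosome libraries, beside 55.2% of all features. Only Rpl7l1 and Rps27l were below it in both (2.53%), beside 27.5% of all features. A further 51 genes (64.6%) were below the control in the first library and above it in the second, a pattern found in 12.2% of all features. These counts moved with the scaling. With 75th percentile scaling 12 genes were above in both, 6 below in both, and 61 below then above. With an equal FPKM sum the counts were 50, 3 and 26. The shares of all features with these patterns are not given here for the 2 scalings. In the first library alone, 60.2% of all features were above the control as deposited. That share was 53.2% with 75th percentile scaling and 69.0% with an equal FPKM sum. In the second library alone, 77 of 79 genes (97.5%) were above the control, beside 67.4% of all features. None of the 79 had a mean change past 1, where 4.04% of all features did. The 2 libraries also differed in the share of summed FPKM given above and in the sum of muscle markers. The part of either in this gap was not tested.

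Among the genes with the highest mean change were Rpl28, Rps21, Rps28, Rps12 and Rpl10a, all above the control in both libraries. Rpl28, a large subunit protein, had 1055 FPKM in 0.2% FBS and 1246 and 1681 in 0.2% FBS + exosome, a mean change of 0.46 ± 0.31 (SD, n = 2). Rps21, a small subunit protein, had 1202 FPKM and 1366 and 1986, a mean change of 0.45 ± 0.38 (SD, n = 2). In both, as deposited, the gap between the 2 exosome libraries was larger than the gap between the control and the first of them. This order can move with the scaling. With an equal FPKM sum the median gap between the 2 libraries over the 79 genes was 0.27 against 0.43. The lowest mean changes were those of Rps27l (−0.23), Rps25 (−0.12), Rpl14 (−0.11), Rpl7l1 (−0.09), Rpl27 (−0.08) and Rpl35 (−0.06). Rps25, Rpl14, Rpl27 and Rpl35 were, as deposited, below the control in the first library and above it in the second. Their changes in the second were 0.10, 0.02, 0.11 and 0.12, so this direction rested on the scaling. With 75th percentile scaling the second-library median of the 79 genes was 0.25 against 0.39. Rpl13a, the gene the study used to normalise its RT-qPCR, had 618 FPKM in 0.2% FBS and 622 and 875 with exosomes. Its level was 787 in 10% FBS, 529 in 2% HS and 590 in 2% HS + exosome, so that the lowest and the highest library differed by 0.73 on the log2 scale.

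**Figure D3:**
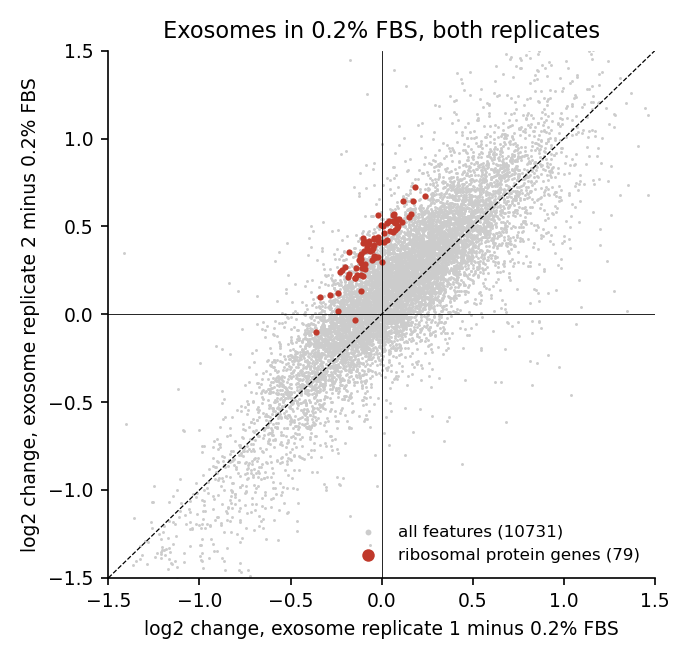
Change in log2(FPKM + 1) from 0.2% FBS in the first (horizontal) and the second (vertical) library of 0.2% FBS + exosome, 1 point per feature, with axes cut at 1.5 in each direction and the line of equal change dashed. All 79 ribosomal protein genes lie above the line, by a median of 0.43 (78 with an equal FPKM sum).

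No ribosomal protein gene passed the test for an exosome effect. The test was limma, fitted over all 10731 features. In the fit of 5 conditions the residual spread came from the 2 replicated libraries, and in the fit of a common effect also from the disagreement between the 2 media. For exosomes in 0.2% FBS it called 0 of 79 genes at an adjusted p under 0.05, beside 12.5% of all features, and 0 of 79 had an unadjusted p under 0.05, beside 31.5%. The smallest adjusted p of limma was 0.470, for Rpl22, and the median standard error was 0.42 for these genes against 0.17 over all features. For the difference between the exosome effects in 0.2% FBS and in 2% HS, limma called 0 of 79, beside 1.16% of all features, with 0 at an unadjusted p under 0.05. Leaving Rps27 apart, the smallest adjusted p of limma was 0.798, for Rpl28. A common exosome effect over both media was called for 0 of 79 and for 0 (0%) of all features. There 0 of 79 had an unadjusted p under 0.05, beside 6.61% of all features, and the smallest adjusted p of limma was 0.713, for Rpl22l1. These genes are 40 of the 83 entries with a mean of at least 1000 FPKM, from which the fitted trend of spread on level is estimated at that height. Without the trend limma also called 0 of 79 in each of the 3 fits. The median standard error of 0.42 was larger than the median change of 0.16.

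**Figure D4:**
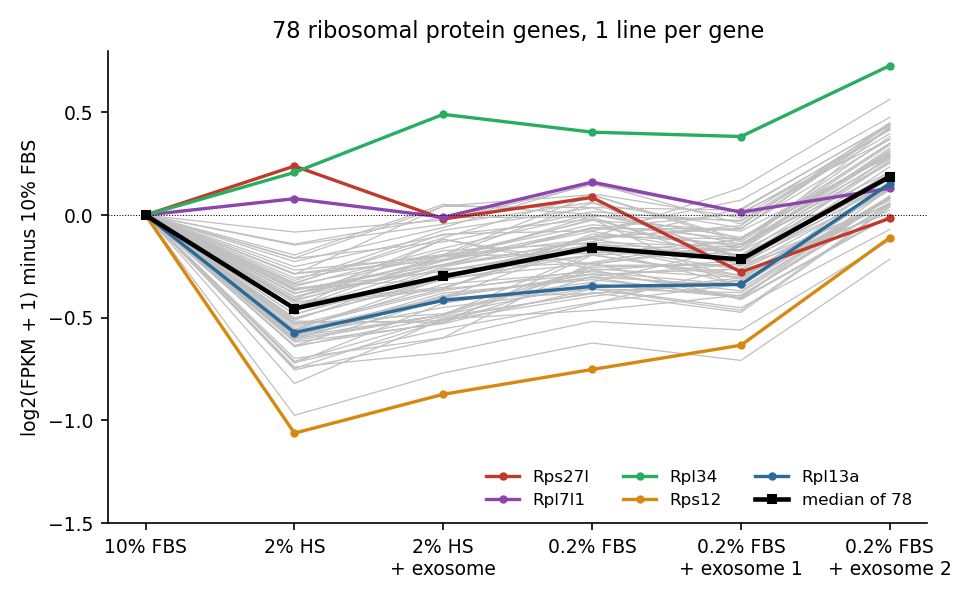
Difference in log2(FPKM + 1) from 10% FBS in each library for 78 ribosomal protein genes, without Rps27, with 1 line per gene. The median (black) is lowest in 2% HS at −0.46, and Rps27l, Rpl7l1 and Rpl34 leave the common course.

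Most genes followed one course over the 6 libraries. Pearson's r between a gene and the mean of the set had a median of 0.965. It is a description over 6 libraries, and all but Rps27 are part of the mean. The r of all features was not summarised beside it. In 59 of the 79 genes the 2 highest libraries were 10% FBS and the second library of 0.2% FBS + exosome, which held for 16.9% of all features. Genes highest in 10% FBS were Rpl39, Rplp2, Rps12, Rps15a, Rps24, Rps27a and Rps27, the last of which entered through that library. The 4 genes with r below 0.5 were Rps27l (−0.30), Rpl7l1 (0.26), Rps27 (0.32) and Rpl34 (0.36). A pair of them are paralogs, and the other pair share sequence with a copy.

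Rps27 encodes a zinc finger protein of the small subunit. The gene lies at chr3:90212522-90213651 on the minus strand (mm10) and has 4 exons. The table gave it 62.5 FPKM in 10% FBS, 0.667 in 2% HS, 1.05 in 2% HS + exosome, 0.559 in 0.2% FBS, and 0.444 and 0.710 in 0.2% FBS + exosome. The differences from growing cells were −5.25 in 2% HS and −5.35 in 0.2% FBS, by far the lowest of the set. Of the 271 stretches of 75 bases, the read length, in its annotated transcript, 267 (98.5%) also occur in that of Rps27rt, a retrogene made from its mRNA. Rps27rt had 2333 FPKM in 10% FBS, 1474 in 2% HS, 1653 in 2% HS + exosome, 1905 in 0.2% FBS, and 2058 and 2972 in 0.2% FBS + exosome. Reads from the 2 genes cannot be told apart over nearly the whole transcript, and how the authors divided such reads is not given in the sources used here. The sum of both was 2395 FPKM in 10% FBS, 1475 in 2% HS, 1654 in 2% HS + exosome, 1906 in 0.2% FBS, and 2059 and 2973 in 0.2% FBS + exosome. On that sum the difference was −0.70 in 2% HS and −0.33 in 0.2% FBS, and the exosome changes were 0.16 in 2% HS and 0.11 and 0.64 in 0.2% FBS. These lie within the range of the other genes.

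Rpl34, a large subunit protein, had 20.8 FPKM in 10% FBS, 24.1 in 2% HS, 29.6 in 2% HS + exosome, 27.8 in 0.2% FBS, and 27.4 and 35.1 in 0.2% FBS + exosome, far below most of the set and lowest in growing cells. It shares 168 of 550 stretches (30.5%) with Rpl34-ps1, a processed copy that was listed at 1008 to 1584 FPKM. The sum of both differed from 10% FBS by −0.51 in 2% HS and by −0.28 in 0.2% FBS, opposite in sign to those of Rpl34 alone. How reads were divided between the 2 was not tested. Over the 82 genes a median of 45.9% of the stretches also occur in another annotated transcript. For 38 genes it was over 50%, and for Rpl10, Rpl5, Rpl9 and Rps27 over 90%. A further 4 genes had none, the paralogs Rpl39l and Rpl3l among them, and 15 genes shared over 10% with another entry of the table. The 41 tested genes with at most 50% had medians of −0.48 in 2% HS, −0.15 in 0.2% FBS, 0.16 with exosomes in 2% HS and 0.17 in 0.2% FBS, close to those of the whole set.

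The paralogs were at other levels than their partners, and none shares a stretch of 75 bases with its partner. Rpl22l1 was above its partner in every library, as was Rps27l above the value listed for Rps27, but not above the sum of Rps27 and its copy. It had 373 FPKM in 10% FBS, 272 in 2% HS, 344 in 2% HS + exosome, 316 in 0.2% FBS, and 335 and 444 in 0.2% FBS + exosome. Rpl22, which binds RNA also outside the ribosome, had 123, 80.5, 92.3, 93.9, 98.0 and 130 FPKM in the same order. Both followed the common course, and Rpl22l1 stayed between 304% and 372% of Rpl22.

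Rps27l, whose transcription is known to be raised by p53, went its own way. It had 221 FPKM in 10% FBS, 260 in 2% HS, 218 in 2% HS + exosome, 234 in 0.2% FBS, and 182 and 218 in 0.2% FBS + exosome. It was highest in 2% HS, where the set was lowest, and below its control in all 3 exosome libraries, by −0.26 in 2% HS and by −0.36 and −0.10 in 0.2% FBS. Its level was 9.21% of the sum of Rps27 and Rps27rt in 10% FBS, 17.7% in 2% HS, 13.2% in 2% HS + exosome, 12.3% in 0.2% FBS, and 8.83% and 7.34% in 0.2% FBS + exosome. In limma its change with exosomes in 0.2% FBS was −0.23 ± 0.25 (SE), adjusted p = 0.570.

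Rpl7l1, a paralog of Rpl7, was nearly flat. It had 40.7 FPKM in 10% FBS, 43.0 in 2% HS, 40.4 in 2% HS + exosome, 45.6 in 0.2% FBS, and 41.1 and 44.6 in 0.2% FBS + exosome, between 2.94% and 4.30% of Rpl7. Rpl7 itself went from 1000 FPKM in 2% HS to 1520 in the second library of 0.2% FBS + exosome. Rpl36al, which the symbol pattern left out, had 309 to 391 FPKM against 582 to 1108 for Rpl36a. It was level with growing cells in 2% HS (−0.02), where Rpl36a was at −0.50.

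The muscle paralog Rpl3l was detected at a low level, below 1 FPKM in every library. It had 0.363 FPKM in 10% FBS, 0.277 in 2% HS, 0.461 in 2% HS + exosome, 0.521 in 0.2% FBS, and 0.101 and 0.106 in 0.2% FBS + exosome, which correspond to an estimated 4.19 to 22.4 reads. Rpl3 had 836 to 1158 FPKM, 1776 to 10948 times as much. Both exosome libraries in 0.2% FBS were below their control, at an estimated 4.19 reads each against 22.4. Rpl39l had 0.0427 FPKM in 2% HS and 0.0489 in the second library of 0.2% FBS + exosome, each about 1 estimated read, and was listed at 0 in the rest. Rpl10l, known from the testis, was listed at 0 in all 6.

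**Figure D5:**
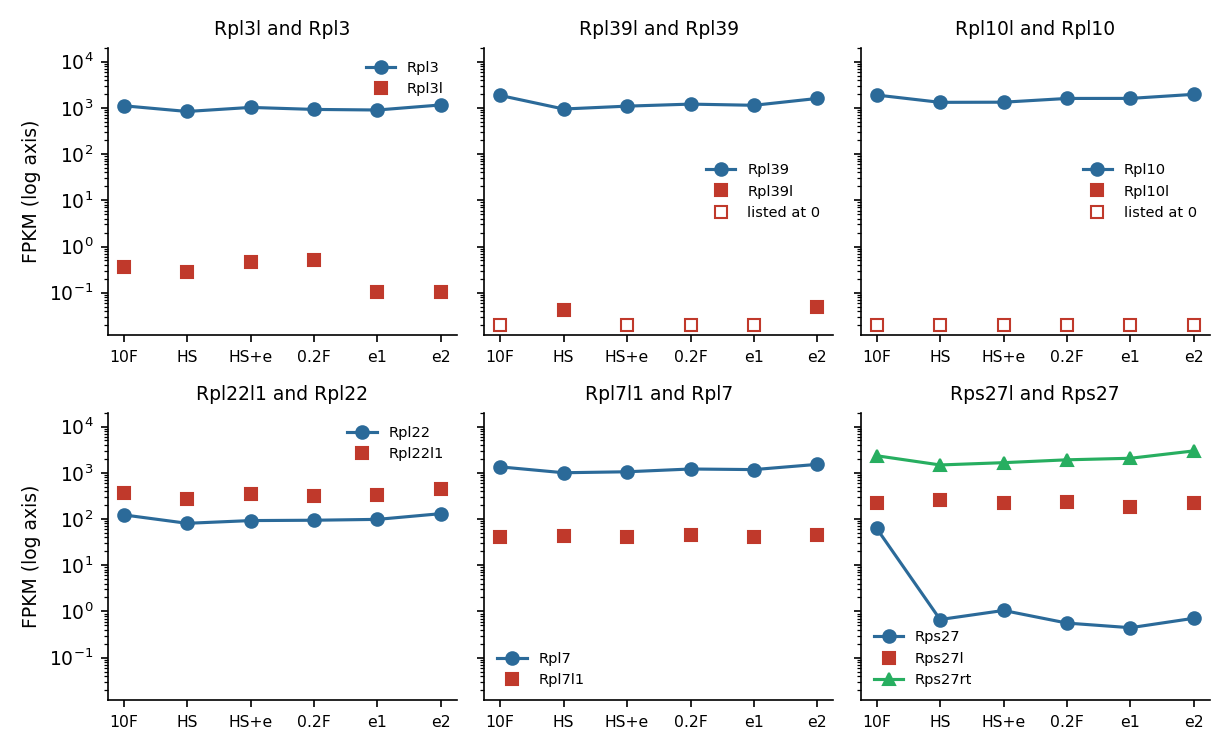
FPKM on a log axis of 6 paralogs (red squares) and their partners (blue circles) in the 6 libraries, ordered as 10% FBS (10F), 2% HS (HS), 2% HS + exosome (HS+e), 0.2% FBS (0.2F) and the 2 libraries of 0.2% FBS + exosome (e1, e2), with open squares for entries listed at 0. Rps27rt (green triangles) is at 1474 to 2972 FPKM, above Rps27 in all 6 libraries.

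The start of the annotated transcripts was searched for the tract that gives TOP mRNAs their name, since it is the sequence feature the family is known for. Promoter entries from RefSeq on GRCm38.p6 were present for 62 of the 82 genes. A tract was counted where a C followed by at least 4 letters C or T, on the coding strand, began within 5 bases of an annotated start of the gene. It was found in 29 of the 62 genes (46.8%), in 23.8% of the 8221 features tested that had an entry, and in 21.2% of all 27025 genes with an entry. With the C exactly at the annotated start, the counts were 13 of 62 (21.0%) and 3.04% of all features. The tracts had a median length of 8 bases and the longest had 20. A match is a description of letters, and its absence in an annotated window says nothing about the true start of the mRNA. Of the following windows of 25 bases around the start, 5′ to 3′ and with the tract in capitals, the first 5 hold a tract and the last 2 do not. Rps21 has a second annotated start and Rpl22 another, neither shown and neither with a tract. The tract of Rpl13a has 14 bases and runs past the end of its window. The windows show the RT-qPCR normaliser, the 2 genes with the highest mean change with exosomes, the gene with the retrogene copy, and a paralog beside its partner and the flat paralog.
Rpl13a, chr7:45128731-45128755, minus strand: cctgcgacaagaCCTCCTCCTTTCC
Rpl28, chr7:4792955-4792979, plus strand: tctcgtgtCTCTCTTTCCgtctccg
Rps21, chr2:180257369-180257393, plus strand: aggacccgCCCTCCTgcccaatagt
Rps27, chr3:90213634-90213658, minus strand: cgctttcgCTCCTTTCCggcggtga
Rpl22l1, chr3:28805498-28805522, plus strand: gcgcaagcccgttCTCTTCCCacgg
Rpl22, chr4:152325716-152325740, plus strand: cctgggaaaagcaatagctggccga
Rpl7l1, chr17:46782642-46782666, minus strand: gctgcgcaagcgcagtagctgaagc
Rpl22l1 and Rpl22 followed the same course, as the values above show, and the part of the tract in it was not tested.

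Genes outside the family were read for the same course. Of the 5797 other entries with a mean of at least 10 FPKM, those with the highest Pearson's r to the mean of the set over the 6 libraries were Rps3a1 (0.992), Dcaf7 (0.992), Gltscr2 (0.988), Rpl34-ps1 (0.986), Eif3h (0.985), Rps27rt (0.982) and Eef2 (0.981). Chd4 (0.980), 2300009A05Rik (0.976) and Trnau1ap (0.974) came next. Rps3a1 is a ribosomal protein that the symbol pattern left out, and Eif3h and Eef2 are translation factors. Rpl34-ps1 and Rps27rt are the copies described above, which share sequence with Rpl34 and Rps27 of the set. Dcaf7 had a high r but a difference of only −0.15 in 2% HS. The 6 ribosomal proteins outside the pattern, Rps3a1, Rpl36al and Rps27rt among them, had medians of −0.36 in 2% HS, −0.11 in 0.2% FBS, 0.12 with exosomes in 2% HS, and −0.00 and 0.43 with exosomes in 0.2% FBS. The −0.00 was −0.08 with 75th percentile scaling and 0.09 with an equal FPKM sum. The 0.43 was 0.28 with 75th percentile scaling, and the −0.11 was −0.19 with an equal FPKM sum. All 6 were lower in 2% HS than in 10% FBS, but Rpl36al by only −0.02, which is nearly level. Of the 21 translation factors and other genes with a known TOP tract, 18 were lower in 2% HS, beside 59.9% of all features, with a median of −0.20 against −0.08. In 0.2% FBS 13 of the 21 were lower (61.9%), as were 61.4% of all features, with a median of −0.09 for both. With exosomes their medians were 0.08 in 2% HS, and −0.06 and 0.13 in 0.2% FBS. The −0.06 was 0.03 with an equal FPKM sum, and the 0.13 was −0.01 with 75th percentile scaling. Among them Pabpc1, the poly(A) binding protein, had a difference of −0.92, from 378 to 199 FPKM, and Tpt1, a growth-associated protein, one of −0.71, from 6185 to 3777 FPKM.

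Ribosome biogenesis and mitochondrial ribosomal genes had other medians. The 42 ribosome biogenesis genes were at −0.06 in 2% HS and 0.05 in 0.2% FBS, where all features were at −0.08 and −0.09, and the 0.05 was −0.02 with an equal FPKM sum. With exosomes in 0.2% FBS 28 of the 42 were below the control in both libraries, beside 27.5% of all features, and 11 above it in both, beside 55.2%. With 75th percentile scaling these counts were 33 and 7. With exosomes in 2% HS 33 of the 42 were above the control, beside 41.3% of all features, with a median of 0.09 against −0.04. Polr1b, a subunit of RNA polymerase I, had changes of −0.61 and −0.52, and Tsr1, a factor of small subunit assembly, of −0.54 and −0.56. In the other direction, Ubtf, a factor of RNA polymerase I, had changes of 0.36 and 0.37, and Polr1c, a shared subunit of RNA polymerases I and III, of 0.15 and 0.57. None of the 4 passed limma (adjusted p = 0.0537 for Polr1b and 0.0554 for Tsr1, 0.159 for Ubtf and 0.260 for Polr1c). The 77 mitochondrial ribosomal proteins had medians of 0.11 in 2% HS and 0.10 in 0.2% FBS. The signs are opposite to those of the cytosolic genes. With exosomes their medians were −0.04 in 2% HS, and −0.24 and 0.02 in the 2 libraries of 0.2% FBS. With an equal FPKM sum the 0.10 was 0.03, the −0.24 was −0.15 and the 0.02 was −0.04. With 75th percentile scaling the −0.04 in 2% HS was −0.008 and the 0.02 was −0.11. In limma for exosomes in 0.2% FBS, 0 of the 6, 0 of the 21 and 0 of the 42 genes of the first 3 lists passed an adjusted p under 0.05, beside 12.5% of all features, and 0, 0 and 3 had an unadjusted p under 0.05, beside 31.5%. Of the 77 mitochondrial genes, Mrps6 passed as higher (0.85 ± 0.17 SE, adjusted p = 0.0226 in limma) and Mrpl1 as lower (−0.60 ± 0.17 SE, adjusted p = 0.0498 in limma). With values below 1 FPKM raised to 1, or with no filter, limma called 0 of all features, so that both calls were lost. They set 1 control library against the spread of 2 exosome libraries that may be technical repeats.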

How the data were processed

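RNA of 6 C2C12 libraries was sequenced as 75-base single reads after stranded, poly(A)-selected preparation. The authors trimmed reads with cutadapt 1.9.1, mapped them with TopHat2 2.1.0 to mm10 (versions from the submitters' processing notes), and computed FPKM with Cufflinks, which they deposited as 1 table. FPKM divides by transcript length and library depth, so counts, and intervals that need them, were not available. The annotation, the use of strand and the division of reads between copies are not given in the sources used here.

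The members and gene lists were chosen with earlier results of these data known. Features with a mean of at least 1 FPKM were compared as log2(FPKM + 1). The threshold of 1 is the study's cut on log2 fold change, and its use on this scale was chosen here. limma 3.58.1 (R 4.3.3) was fitted over all 10731 features with a mean-variance trend and Benjamini-Hochberg adjustment, with 5 condition means, and for a common exosome effect over the 5 libraries other than 10% FBS with the medium as a term. limma was also run on simulated data with known changes, in which the noise was drawn independently for each gene. The ribosomal protein genes instead shifted together between the 2 exosome libraries, a setting that the simulation did not hold. Genes were named by rule: the highest and lowest changes per comparison, the highest and lowest levels, and a fixed set of paralogs, partners, stalk proteins, Rpl13a and Rpsa; single list genes, genes in short counts and unlisted partners were named after their values were seen. Shared stretches came from 1 principal transcript per gene in the GENCODE annotation of mm10, and depth was estimated with an assumed fragment of 200 bases, which left 74.5% to 77.6% of low values within 0.1 of a whole read. Protein sequences and reads were not analysed here, and some genes that the naming rule picks are not reported here by name. Alternatives were another pseudocount, a floor of 1 FPKM, 2 scalings, no filter, no trend and leaving out each exosome replicate.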

Additional observations from a re-analysis of the deposited data

How the results depend on the processing

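The 4 medians of the ribosomal protein genes kept their sign under a pseudocount of 0.1, a floor of 1 FPKM, scaling to the 75th percentile or to an equal FPKM sum, and no filter. The exception was the exosome change in 0.2% FBS when a replicate was left out: it ranged from −0.05 (second left out) to 0.39 (first left out), against 0.16 with both, and was 0.05 with 75th percentile scaling. In 2% HS minus 10% FBS the median lay between −0.45 and −0.48, in 0.2% FBS minus 10% FBS between −0.13 and −0.24, and with exosomes in 2% HS between 0.16 and 0.20. With 75th percentile scaling 12 of 79 genes (15.2%) were above the control in the first exosome library, beside 53.2% of all features. With an equal sum it was 50 (63.3%), beside 69.0%, and as deposited 26 (32.9%), beside 60.2%. The count of members called by limma was 0 in each fit under every alternative run. The calls over all features for exosomes in 0.2% FBS ranged from 0 to 1658. No limma fit of that effect or of the difference between media could be made without an exosome replicate, since no residual degree of freedom was left. The difference in share between 10% FBS and 2% HS was 6.83 points without the 100 highest other entries and 5.15 without the 5 highest members. The set with at most 50% shared stretches was chosen after seeing the data. Apart from the medium as a term in the fit of a common exosome effect, no paired analysis was run.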
